A study of Mus musculus with 8 samples.

Results

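The genes described here are 39 components and readouts of the canonical Wnt pathway, measured in brain endothelial cells of neonatal mice. They were chosen by symbol, and each matched exactly 1 of the 25700 gene rows of the count tables. They comprise 11 receptors, 3 receptor cofactors, 7 genes of the cytoplasmic relay and destruction complex, 4 LEF and TCF transcription factors, 7 feedback readouts, 4 readouts linked to the blood-brain barrier and 3 secreted antagonists. The 4 KO pups were labelled GLUT1EC-/-, which denotes loss of the glucose transporter GLUT1 in endothelial cells, and the 4 WT pups were labelled WT. The labels call the WT animals littermates, but the titles place 3 of the 4 in another cage than the KO pups. All pups were C57BL/6 and at postnatal day 6, and the brain endothelial cells were isolated by flow cytometry and lysed without culture before RNA extraction. The promoter that drives the endothelial deletion is not given in the sources used here. The comparison asks whether pathway components and readouts differ between KO and WT endothelium, given the lower level of Lef1 in KO.

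Wnt ligands bind a Frizzled receptor together with the co-receptor LRP5 or LRP6, and this stops a complex of Axin, APC and the kinase GSK3 from marking beta-catenin for destruction. Stabilised beta-catenin enters the nucleus and activates genes with LEF and TCF factors bound to DNA. In brain endothelium this pathway drives vessel growth into the neural tissue and barrier formation, with WNT7A and WNT7B acting through Frizzled, GPR124 and RECK, and norrin acting through FZD4 and TSPAN12.

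Total counts per library were 20858070 to 40833036 in KO and 25886455 to 114007737 in WT. The number of genes with a count was lowest in KO pup 1, at 13624, and 15756 to 17082 elsewhere. KO pup 1 also had the lowest correlation with other libraries across genes (0.913 to 0.932). Summed levels of 10 endothelial markers were 12040 to 13801 CPM (counts scaled to 1000000 per library) in KO and 12638 to 13513 CPM in WT. Transcripts of other cell types were present, and the summed level of 5 choroid plexus epithelial markers was 16.1 to 289 CPM in KO and 364 to 1868 CPM in WT, with no overlap between groups and with WT pup 5 highest. The 8 pericyte markers summed to 1711 to 2594 CPM in KO and 460 to 2626 CPM in WT, with WT pup 2 lowest. The 7 microglial markers summed to 462 to 1321 CPM in KO and 482 to 825 CPM in WT. Of 8 astrocyte markers, 5 (Gfap, Aqp4, Slc1a2, Aldh1l1 and Aldoc) had log2 fold changes of 0.90 to 1.43 at an unadjusted p under 0.05, and 0 were called (edgeR adjusted p at least 0.237 for the 5). Of the rest, Slc1a3 was at 0.31, Fgfr3 at -0.11 and Gja1 at -0.23 (unadjusted p in edgeR 0.0443). All 8 summed to 313 to 419 CPM in KO and 320 to 389 CPM in WT. Without Gja1, which made up most of the astrocyte sum, the other 7 summed to 66.4 to 160 CPM in KO and 36.9 to 76.4 CPM in WT. The part of these other cell types in the pathway values was not tested. By the sample titles, the 4 KO pups and WT pup 5 shared a cage and the other 3 WT pups came from another. The names of the deposited tables place WT pup 3 in that cage in place of WT pup 5, so either way 3 of the 4 WT pups differed from all KO pups in cage as well as genotype.

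Of the 38 pathway genes tested, Lef1 was the 1 called, and it was lower in KO. That call was lost with a cage term (edgeR adjusted p 0.330 by the titles and 0.270 by the names of the deposited tables). Tcf7l1 had a log2 fold change close to that of Lef1 but missed the threshold, and 7 of the 38 genes had a 95% interval that excluded 0. The readouts commonly used for pathway activity, among them Axin2, Apcdd1, Nkd1 and Notum, did not pass the test, and their groups overlapped. A gene is called here when edgeR's quasi-likelihood test, run on all 14154 tested genes, gave an adjusted p below 0.05. In that fit 0.113% of all tested genes were called lower in KO and 0.276% were called higher (0.389% in either direction), while 1 of the 38 tested pathway genes was called lower (2.63%) and 0 were called higher. At an unadjusted p under 0.05 the count was 7 pathway genes (18.4%), with 11.1% of all tested genes. DESeq2, which called 351 of all 14154 tested genes in either direction, called 4 pathway genes, all lower in KO: Lef1, Tcf7l1, Fzd1 and Adgra2. Every KO value lay below every WT value for 6 of the 38 genes (15.8%), with 3.43% over all tested genes. These were Fzd1, Adgra2, Axin1, Lef1, Tcf7l1 and Dkk2. The pathway shares of 2.63%, 18.4% and 15.8% all include Lef1, which was known to be lower when the list was drawn up. They are descriptions and not a test of the pathway. No pathway gene had all KO values above all WT values (3.77% over all tested genes, and 7.19% in either direction). The median log2 fold change was -0.11 over the 38 genes and 0.00 over all tested genes, with 27 pathway genes below 0 and 11 above. Rnf43, a ubiquitin ligase that removes Frizzled from the cell surface, failed the filter on low counts, with 0 to 16 counts per KO library and 9 to 36 per WT library. Each library came from a separately labelled pup, so p-values measure the spread between pups of the same genotype. With all KO pups in 1 cage, they do not measure the spread between cages. In bulk samples, fewer cells of a type and less RNA per cell cannot be told apart.

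**Figure D1:**
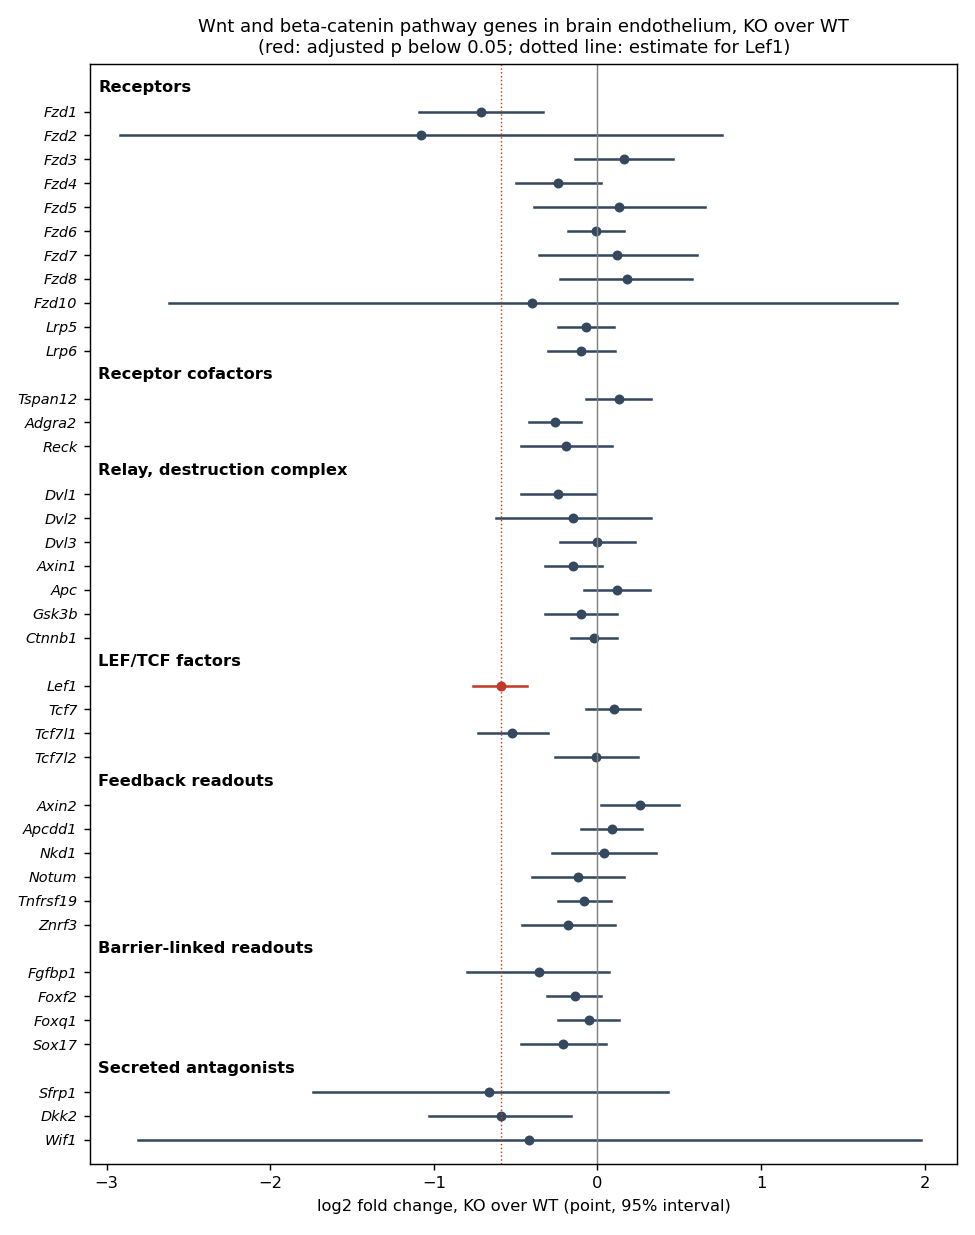
Log2 fold change of KO over WT (x axis) for the 38 tested pathway genes (y axis, grouped by role), with points for estimates and lines for 95% intervals from edgeR. Lef1, in red, is the called gene, and the dotted line marks its estimate of -0.59 (interval -0.76 to -0.43). All 6 tested feedback readouts and 3 of the 4 barrier-linked readouts have intervals that lie above that line. Differences from Lef1 were not tested.

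Among the Frizzled receptors, which bind Wnt ligands at the cell surface, Fzd6 and Fzd4 made up most of the transcripts in both genotypes. On the scale of CPM per kilobase of exon, Fzd6 averaged 100 ± 5.32 in KO and 101 ± 8.06 in WT (SD, n = 4 each), and Fzd4 averaged 41.0 ± 2.25 in KO and 48.4 ± 9.32 in WT. Fzd1 followed at 10.4 ± 2.07 in KO and 17.1 ± 3.79 in WT. The ranges of Fzd6, Fzd4 and Fzd1 were separate from each other within each genotype. The other 6 Frizzled genes lay at or below 2.25 CPM per kilobase in both group means. Fzd6 contributed 63.1 ± 1.48% of the summed Frizzled level in KO and 58.3 ± 1.86% in WT, Fzd4 25.9% in KO and 27.9 ± 2.88% in WT, and Fzd1 6.58 ± 1.24% in KO and 9.98 ± 2.42% in WT. The lowest KO share of Fzd6 (61.0%) was just above the highest WT share (60.8%). The levels of Fzd6 itself overlapped between groups, so its share also depends on the other genes in the sum. That sum was 158 ± 5.63 CPM per kilobase in KO and 173 ± 16.8 in WT. It leaves out Fzd9, at 0.728 CPM per kilobase in KO and 0.447 in WT.

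Fzd1 had the largest difference among the receptors with substantial counts. It measured 55.2, 34.4, 44.6 and 40.9 CPM in KO pups 1 to 4, against 91.6, 77.2, 56.3 and 61.8 CPM in WT pups 5, 1, 2 and 3. The highest KO pup, pup 1, stood just below the lowest WT pup, pup 2, so the groups were separate by a narrow margin. The log2 fold change was -0.71 (SE 0.17, 95% interval -1.09 to -0.33) and edgeR's adjusted p was 0.134. DESeq2 called it (adjusted p 0.00462), and so did edgeR without KO pup 1 and WT pup 2 together (log2 fold change -0.94, adjusted p 0.0327), a setting chosen after seeing the data. These were the 2 of 20 alternatives that called Fzd1, and over all 20 the log2 fold change was -1.07 to -0.50 with edgeR adjusted p values up to 1. Without WT pup 5 it was -0.58 (edgeR adjusted p 0.270). WT pup 5, the highest for Fzd1, was also the highest for the choroid plexus markers, and the part of those cells in the Fzd1 values was not tested.

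Fzd4, the receptor of norrin, measured 269, 295, 260 and 278 CPM in KO pups 1 to 4, against 335, 258, 407 and 302 CPM in WT pups 5, 1, 2 and 3. WT pup 1 lay below all KO pups, and the log2 fold change of -0.24 (95% interval -0.50 to 0.02) did not pass (edgeR adjusted p 0.509). Fzd6 measured 496, 500, 487 and 444 CPM in KO pups 1 to 4 and 500, 431, 523 and 485 CPM in WT pups 5, 1, 2 and 3, a log2 fold change of -0.01 with an interval of -0.18 to 0.16. The groups overlapped throughout for Fzd6. Fzd3, Fzd5, Fzd7 and Fzd8 had log2 fold changes between 0.12 and 0.18, and their intervals all included 0. Fzd2 and Fzd10 were the scarcest receptors, with 0 to 58 counts of Fzd2 per KO library and 56 to 82 per WT library, and 0 to 29 counts of Fzd10 per KO library and 12 to 27 per WT library. Fzd2 averaged 0.697 CPM in KO and 1.52 CPM in WT, and Fzd10 0.338 CPM in KO and 0.476 CPM in WT. Both had 0 counts in KO pup 1, where a count of 0 allows up to 0.144 CPM, and both were highest in WT pup 5.

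The co-receptors that form the Wnt-bound complex with Frizzled were measured with narrow intervals. Lrp5 averaged 174 ± 7.07 CPM in KO and 183 ± 15.4 CPM in WT, a log2 fold change of -0.07 (interval -0.24 to 0.10). Lrp6 averaged 143 ± 17.0 CPM in KO and 153 ± 11.3 CPM in WT, a log2 fold change of -0.10 (interval -0.30 to 0.11). Neither passed, and both intervals lie inside a 1.5-fold change in either direction.

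Of the receptor cofactors, Adgra2 showed lower KO values without overlap but did not pass edgeR's test. Adgra2 encodes GPR124, an adhesion receptor that brain endothelium needs for its response to WNT7A and WNT7B. It measured 412, 372, 369 and 352 CPM in KO pups 1 to 4, against 466, 443, 472 and 423 CPM in WT pups 5, 1, 2 and 3. The groups were separated by the gap between KO pup 1 and WT pup 3, and the estimate was -0.26 on the log2 scale (interval -0.42 to -0.10, SE 0.07), for which edgeR gave an adjusted p of 0.193. DESeq2 gave an adjusted p of 0.0255. Reck, the membrane-anchored protein that binds WNT7 with GPR124, averaged 41.9 ± 6.56 CPM in KO and 47.7 ± 6.04 CPM in WT (log2 fold change -0.19, interval -0.47 to 0.09). Tspan12, the tetraspanin that acts with FZD4 in norrin signalling, averaged 92.9 ± 7.02 CPM in KO and 84.9 ± 7.65 CPM in WT (log2 fold change 0.13, interval -0.07 to 0.33). The groups overlapped for Reck and Tspan12. Adgra2 shares 73 exon bases with Brf2 on the opposite strand, and the strand setting of the counting is not given in the sources used here.

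**Figure D2:**
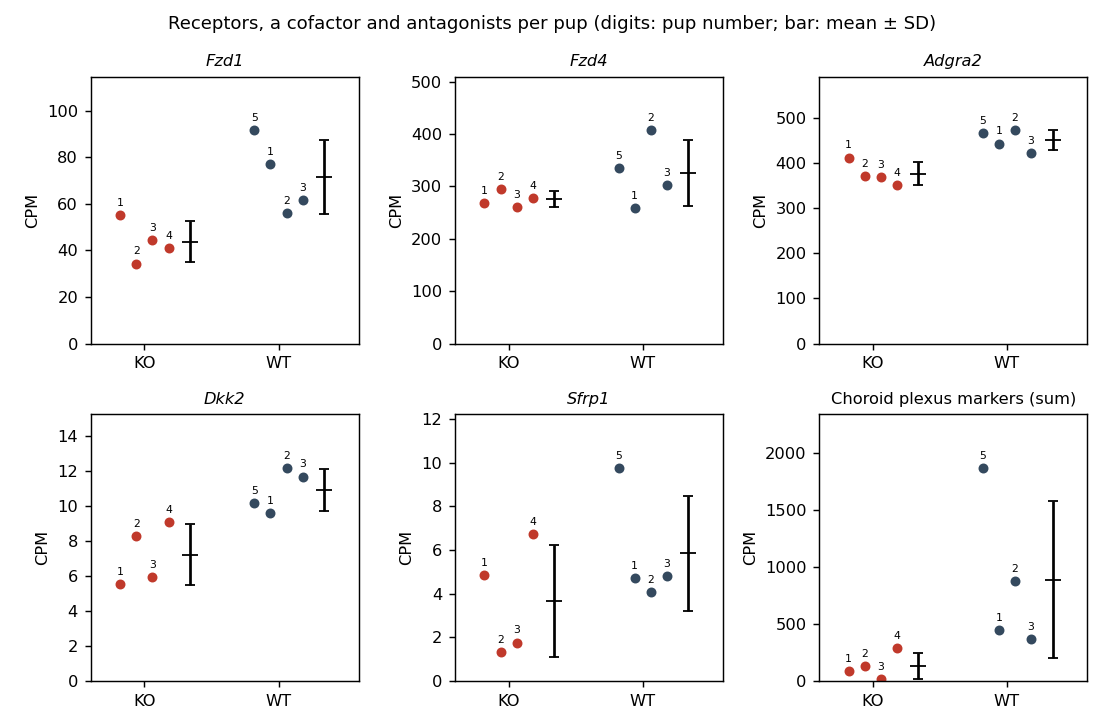
CPM per pup (y axis, linear from 0) for Fzd1, Fzd4, Adgra2, Dkk2, Sfrp1 and the summed choroid plexus markers, with KO left of WT, digits for pup numbers and bars for mean ± SD (n = 4 each). Fzd1, Adgra2, Dkk2 and the marker sum do not overlap between groups, and WT pup 5 is the highest pup for Fzd1, Sfrp1 and the marker sum.

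In the cytoplasmic relay and the destruction complex, 0 of 7 tested genes were called. Ctnnb1, which encodes beta-catenin itself, was the most abundant gene of the pathway at 284 ± 8.29 CPM per kilobase in KO and 287 ± 12.2 in WT. Its levels were 1503, 1497, 1482 and 1410 CPM in KO pups 1 to 4, against 1437, 1583, 1471 and 1477 CPM in WT pups 5, 1, 2 and 3. The groups overlapped throughout, and the log2 fold change of -0.02 had an interval of -0.16 to 0.12. Apc, the scaffold of the destruction complex, averaged 234 ± 26.4 CPM in KO and 216 ± 14.9 CPM in WT (log2 fold change 0.12, interval -0.08 to 0.32). Gsk3b, the kinase that phosphorylates beta-catenin, averaged 136 ± 15.2 CPM in KO and 145 ± 15.7 CPM in WT (log2 fold change -0.10, interval -0.32 to 0.12).

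Axin1, the constitutive Axin scaffold, showed a small difference without overlap. It measured 49.4, 52.9, 52.8 and 46.0 CPM in KO pups 1 to 4, against 58.1, 56.0, 55.1 and 53.3 CPM in WT pups 5, 1, 2 and 3. KO pup 2 and WT pup 3 differed by less than the spread within either group, the log2 fold change was -0.15 (interval -0.32 to 0.03) and edgeR's adjusted p was 0.550. The Dishevelled genes, which carry the signal from Frizzled to the Axin complex, had log2 fold changes of -0.24 for Dvl1 (interval -0.47 to -0.01, edgeR adjusted p 0.425), -0.15 for Dvl2 (interval -0.62 to 0.33) and 0.00 for Dvl3 (interval -0.23 to 0.23). Dvl2 shares 1151 exon bases with Acadvl on the opposite strand, so its values are less certain. Opposite-strand overlaps also held for Fzd5 (1233 exon bases), Sox17 (804), Ctnnb1 (759) and Notum (708). Without KO pup 1, which had 10.4 CPM against 21.6 to 23.3 CPM in the other KO pups, the log2 fold change of Dvl2 was 0.06.

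The LEF and TCF factors divided into a pair with lower KO values and a pair with overlapping groups. Lef1, an activator that is itself a known target of the pathway, measured 103, 94.0, 98.0 and 92.6 CPM in KO pups 1 to 4, against 133, 156, 150 and 144 CPM in WT pups 5, 1, 2 and 3. Lef1 fell to 0.663 times the WT level in KO, and no KO pup reached the lowest WT pup, pup 5. Lef1 shares 1208 exon bases with Gm43352, an opposite-strand gene for which no counts were given. The Lef1 values are therefore less certain. The log2 fold change was -0.59 (SE 0.07, interval -0.76 to -0.43), edgeR's adjusted p was 0.00418 and an exact permutation test (two-sided) of the CPM gave 0.0286, its lower limit with 4 pups against 4. Tcf7l1 encodes TCF3, which mostly acts as a repressor of Wnt targets, and measured 46.0, 39.1, 40.7 and 37.3 CPM in KO pups 1 to 4, against 63.0, 53.8, 62.7 and 53.5 CPM in WT pups 5, 1, 2 and 3. All KO pups were below all WT pups, and the log2 estimate of -0.52 (interval -0.73 to -0.30, SE 0.10) was close to that of Lef1. Its edgeR adjusted p of 0.0602 missed the threshold, while DESeq2 (0.000769), limma-voom (0.0448), edgeR with no filter on low counts (0.0398), edgeR with 1 surrogate variable (0.0228) and edgeR without KO pup 1 (0.0273) passed it. It was called in these 5 of 20 alternatives, over which its log2 fold change was -0.63 to -0.39 and its adjusted p reached 0.845.

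Tcf7, which encodes TCF1, and Tcf7l2, which encodes TCF4, had overlapping groups. Tcf7 measured 303, 272, 266 and 246 CPM in KO pups 1 to 4, against 250, 258, 245 and 264 CPM in WT pups 5, 1, 2 and 3, a log2 fold change of 0.10 (interval -0.07 to 0.26). Tcf7l2 measured 30.3, 26.9, 26.5 and 21.9 CPM in KO pups 1 to 4, against 26.4, 27.5, 27.6 and 24.3 CPM in WT pups 5, 1, 2 and 3, a log2 fold change of -0.01 (interval -0.26 to 0.25). For Tcf7l2 the KO pups held both the highest and the lowest value.

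Per kilobase of exon, Tcf7 was the most abundant factor at 103 ± 9.10 CPM in KO and 96.8 ± 3.12 CPM in WT. Lef1 (11.0 ± 0.521 in KO, 16.6 ± 1.12 in WT) and Tcf7l1 (10.4 ± 0.954 in KO, 14.8 ± 1.36 in WT) did not differ from each other beyond their spread, and Tcf7l2 was lowest (3.01 ± 0.392 in KO, 3.02 ± 0.173 in WT). The level summed over the 4 factors was 128 ± 10.9 CPM per kilobase in KO and 131 ± 2.02 in WT. Within that sum, Lef1 made up 8.22 to 9.08% in KO and 11.7 to 13.4% in WT, while Tcf7 accounted for 80.5 to 81.4% in KO and 72.0 to 75.4% in WT. The shares are descriptions, since Lef1 was among the genes known to be lower when the list was drawn up. The groups of Tcf7 itself overlapped, so its share also depends on the lower Lef1 and Tcf7l1 in the sum.

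**Figure D3:**
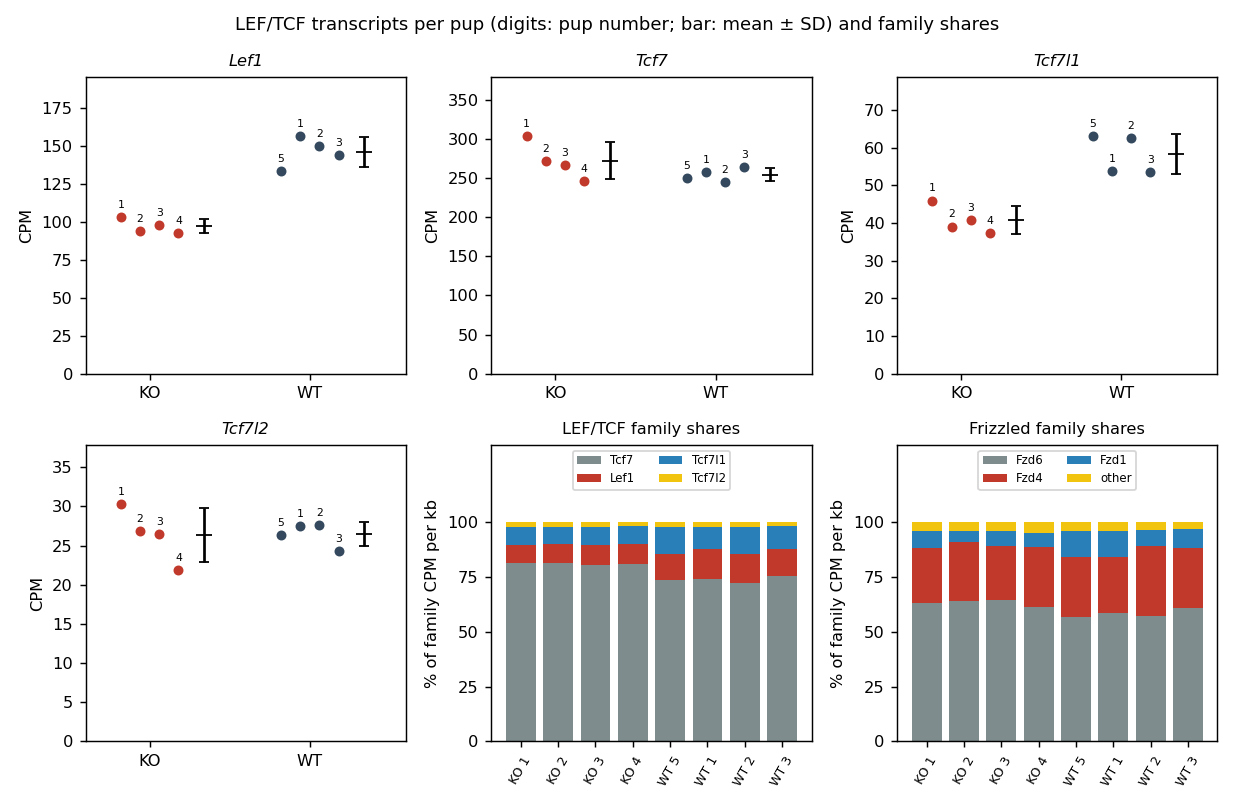
CPM per pup (y axis, linear from 0) for Lef1, Tcf7, Tcf7l1 and Tcf7l2, with KO left of WT, digits for pup numbers and bars for mean ± SD (n = 4 each), and stacked shares of the LEF/TCF and Frizzled sums of CPM per kilobase in each pup. Lef1 and Tcf7l1 are lower in all 4 KO pups. Tcf7 makes up at least 80.5% of the LEF/TCF sum in every KO pup and at most 75.4% in every WT pup. The CPM of Tcf7 itself overlap between groups, so its share also depends on the lower Lef1 and Tcf7l1 in the sum.

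Start-site windows of the lower factors and of readouts are printed here because LEF and TCF proteins act by binding short sites near their targets. The RefSeq table for GRCm38.p6 held 300-base windows (250 bases before a start and 50 after it) for 24 of the 39 genes. Lef1 (GRCm38 chromosome 3, 131110471 to 131224356, plus strand) has starts at its 5′ end and others inside the gene in that table, and counts per gene add the transcripts of all of them. Tcf7l1 lies on chromosome 6 (72626378 to 72789254, minus strand), Axin2 on chromosome 11 (108920349 to 108950783, plus strand) and Tnfrsf19 on chromosome 14 (60963875 to 61046490, minus strand). Sequences run 5′ to 3′ on the strand of the gene, and capitals mark a match to CTTTG followed by AA, AT, TA or TT, on either strand, the core letters of LEF and TCF sites.
Lef1 outer start, chr3:131110047-131110346, plus strand: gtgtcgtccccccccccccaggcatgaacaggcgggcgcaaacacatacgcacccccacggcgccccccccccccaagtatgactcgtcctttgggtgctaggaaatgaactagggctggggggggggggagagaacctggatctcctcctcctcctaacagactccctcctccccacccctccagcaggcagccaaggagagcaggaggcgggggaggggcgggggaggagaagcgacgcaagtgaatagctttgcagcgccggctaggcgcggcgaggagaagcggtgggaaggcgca
Lef1 internal start, chr3:131156044-131156343, plus strand: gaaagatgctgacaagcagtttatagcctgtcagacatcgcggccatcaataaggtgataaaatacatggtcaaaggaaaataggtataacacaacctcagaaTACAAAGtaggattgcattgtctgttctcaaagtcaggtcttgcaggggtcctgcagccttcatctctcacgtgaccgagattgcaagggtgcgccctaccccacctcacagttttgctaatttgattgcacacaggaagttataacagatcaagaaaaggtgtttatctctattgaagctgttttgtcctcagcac
Tcf7l1, chr6:72788996-72789295, minus strand: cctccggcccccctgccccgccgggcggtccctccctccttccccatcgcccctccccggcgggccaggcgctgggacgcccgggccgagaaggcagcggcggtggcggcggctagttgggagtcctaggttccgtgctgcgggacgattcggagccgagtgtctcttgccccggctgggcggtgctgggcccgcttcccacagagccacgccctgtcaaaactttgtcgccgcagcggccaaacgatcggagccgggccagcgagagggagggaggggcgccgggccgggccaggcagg
Axin2, chr11:108920099-108920398, plus strand: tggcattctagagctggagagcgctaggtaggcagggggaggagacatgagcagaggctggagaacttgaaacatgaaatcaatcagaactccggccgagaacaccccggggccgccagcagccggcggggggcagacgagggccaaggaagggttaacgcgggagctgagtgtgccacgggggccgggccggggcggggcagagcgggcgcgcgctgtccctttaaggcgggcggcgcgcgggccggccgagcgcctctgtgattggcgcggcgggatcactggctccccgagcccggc
Tnfrsf19 inner start, chr14:61037938-61038237, minus strand: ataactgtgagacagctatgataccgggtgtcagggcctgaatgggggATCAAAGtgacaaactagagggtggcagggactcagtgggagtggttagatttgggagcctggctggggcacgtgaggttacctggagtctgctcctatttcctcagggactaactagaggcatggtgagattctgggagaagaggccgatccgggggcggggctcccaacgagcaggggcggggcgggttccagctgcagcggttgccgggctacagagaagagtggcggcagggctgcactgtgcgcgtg

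The printed internal start of Lef1 held 1 match, TACAAAG, whose first base lies at position -147 from the start. The inner start of Tnfrsf19 held 1 match, ATCAAAG, at position -202. All other Lef1 windows, among them another internal start (chr3:131112541-131112840), held no match, and neither did the outer start of Tnfrsf19 (chr14:61046806-61047105). The windows printed for the outer start of Lef1, for Tcf7l1 and for Axin2 held no match in these 300 bases. Among all 32 windows of the pathway genes, 5 held a match (15.6%), at Fzd7, Lef1, Reck, Tcf7l2 and Tnfrsf19, against 16.9% of the 32851 windows in the table. A match is a description of the letters and not a bound site.

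Of the feedback readouts, genes that the pathway switches on and most of which then dampen it, 0 of 6 tested were called, with 3 log2 fold changes above 0 and 3 below. Axin2, an Axin scaffold induced by the pathway and its most used readout, measured 122, 141, 123 and 98.2 CPM in KO pups 1 to 4, against 108, 107, 99.6 and 90.3 CPM in WT pups 5, 1, 2 and 3. KO pups 1 to 3 lay above every WT pup, and KO pup 4 lay among them. The log2 fold change was 0.26 (SE 0.11, interval 0.02 to 0.50), the unadjusted p in edgeR was 0.0347 and the adjusted p was 0.395. It stayed above 0 in all 20 alternative settings, between 0.16 and 0.42, and was called in 0 of them.

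Apcdd1, a membrane inhibitor of Wnt receptors, was the most abundant readout at 242 ± 23.7 CPM per kilobase in KO and 228 ± 16.8 in WT. It measured 3408, 3289, 3075 and 2713 CPM in KO pups 1 to 4, against 3100, 2866, 2668 and 3127 CPM in WT pups 5, 1, 2 and 3. The groups overlapped, with a log2 fold change of 0.09 (interval -0.10 to 0.27). Nkd1, a Dishevelled-binding inhibitor, measured 407, 375, 255 and 272 CPM in KO pups 1 to 4, against 316, 360, 279 and 320 CPM in WT pups 5, 1, 2 and 3. KO pups 1 and 2 stood above all WT pups and KO pups 3 and 4 below them, and the log2 fold change was 0.04 (interval -0.28 to 0.36).

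Notum, a secreted enzyme that inactivates Wnt ligands by removing their lipid, measured 126, 132, 117 and 102 CPM in KO pups 1 to 4, against 115, 140, 107 and 157 CPM in WT pups 5, 1, 2 and 3 (log2 fold change -0.12, interval -0.40 to 0.16). Its groups overlapped, as did those of Tnfrsf19 and Znrf3. Tnfrsf19, a receptor of the tumour necrosis factor family that the pathway induces in brain vessels, averaged 282 ± 14.4 CPM in KO and 298 ± 17.9 CPM in WT (log2 fold change -0.08, interval -0.24 to 0.08). Znrf3, the ubiquitin ligase related to Rnf43, averaged 41.2 ± 4.64 CPM in KO and 46.5 ± 7.60 CPM in WT (log2 fold change -0.18, interval -0.46 to 0.11). For all 6 tested feedback readouts the 95% interval lay above the Lef1 estimate of -0.59 and inside a 1.5-fold change in either direction. Intervals inside that limit were found for 26 of the 38 tested pathway genes and 8255 of all 14154 tested genes. They were not particular to the readouts. The interval of Lef1 itself, -0.76 to -0.43, overlapped that of Znrf3, and the difference between Lef1 and each readout was not tested. The median log2 fold change of the 6 was -0.02.

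Lef1 was also set against the other genes within each pup. The CPM ratio of Lef1 to Axin2 ranged over 0.667 to 0.943 in KO and 1.23 to 1.59 in WT. The ratio of Lef1 to Tnfrsf19 ranged over 0.323 to 0.367 in KO and 0.463 to 0.511 in WT. Of 13 such ratios, to the other LEF and TCF factors and to the tested readouts, 9 did not overlap between groups and were lower in KO, and those to Tcf7l1, Znrf3, Fgfbp1 and Sox17 overlapped. These ratios inherit the fall of Lef1 and are given with no test.

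**Figure D4:**
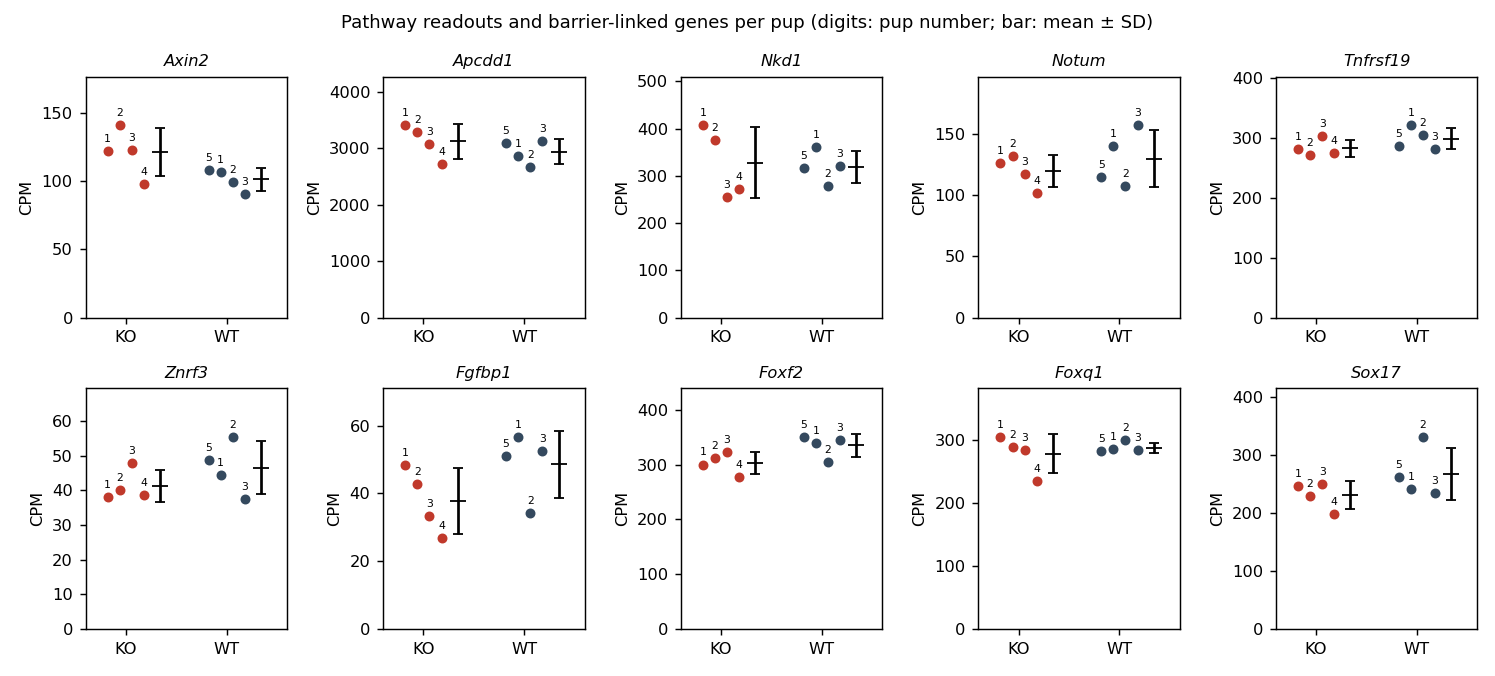
CPM per pup (y axis, linear from 0, scaled per gene) for 6 feedback readouts and 4 barrier-linked readouts, with KO left of WT, digits for pup numbers and bars for mean ± SD (n = 4 each). The groups overlap for all 10 genes, 3 of the 4 KO pups exceed every WT pup for Axin2, and KO pup 4 is the lowest KO pup for 7 of the 10.

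The barrier-linked readouts all had log2 fold changes below 0, and 0 of 4 were called. Foxf2, a forkhead factor of brain endothelium and pericytes, measured 300, 312, 323 and 277 CPM in KO pups 1 to 4, against 351, 340, 304 and 344 CPM in WT pups 5, 1, 2 and 3 (log2 fold change -0.14, interval -0.31 to 0.02). WT pup 2 lay within the KO range. Fgfbp1, a secreted protein that binds fibroblast growth factors and depends on beta-catenin in brain endothelium, measured 48.5, 42.9, 33.3 and 26.7 CPM in KO pups 1 to 4, against 51.2, 56.8, 34.3 and 52.4 CPM in WT pups 5, 1, 2 and 3. Its interval of -0.80 to 0.07 around a log2 fold change of -0.36 includes both 0 and the size of the Lef1 change. Sox17, a SOX factor of arterial endothelium, averaged 231 ± 23.6 CPM in KO and 267 ± 44.7 CPM in WT (log2 fold change -0.21, interval -0.47 to 0.05), with WT pup 2 highest at 332 CPM. Foxq1, a forkhead factor enriched in brain endothelium, averaged 278 ± 30.4 CPM in KO and 288 ± 7.78 CPM in WT (log2 fold change -0.05, interval -0.24 to 0.13). Foxq1 shares 3200 exon bases with the opposite-strand gene A530084C06Rik, so its values are less certain. KO pup 4, the lowest KO pup for 7 of the 10 readouts, was also the lowest pup for the summed endothelial markers (12040 CPM) and had the highest pericyte sum among KO pups (2594 CPM), and the part of these in the readouts was not tested.

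The secreted antagonists, which keep ligands or LRP co-receptors from signalling, were all scarce. Dkk2, a ligand of LRP5 and LRP6, measured 5.56, 8.29, 5.93 and 9.10 CPM in KO pups 1 to 4, against 10.2, 9.63, 12.2 and 11.7 CPM in WT pups 5, 1, 2 and 3. The groups did not overlap, with KO pup 4 just below WT pup 1, and the estimate of -0.59 on the log2 scale (interval -1.03 to -0.16, SE 0.20) did not pass (edgeR adjusted p 0.269). Sfrp1, a secreted Frizzled-like binder of Wnts, measured 4.85, 1.33, 1.76 and 6.73 CPM in KO pups 1 to 4, against 9.77, 4.72, 4.09 and 4.80 CPM in WT pups 5, 1, 2 and 3 (log2 fold change -0.66, interval -1.74 to 0.43). WT pup 5 stood far above the other WT pups. Wif1, which binds Wnt ligands outside the cell, had 0 counts in KO pup 1 and in WT pup 5, which allow up to 0.144 and 0.116 CPM, and at most 1.08 CPM elsewhere.

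Other genes of the pathway were taken from 9 lists of 138 genes with a row, of which 110 were tested. Across them 1 was called lower and 0 higher. The called gene was Slc2a1, a barrier gene linked to Wnt that is also the gene deleted in the KO pups. It measured 1386 to 1602 CPM in KO and 2238 to 3726 CPM in WT (log2 fold change -1.01, edgeR adjusted p 0.00619). Counts of Slc2a1 in KO thus remained at 0.495 times the WT level, and their source was not tested. The groups did not overlap in the KO-lower direction for 10 of the 110 (9.09%, and 3.43% over all tested genes), Slc2a1 among them, and in the KO-higher direction for 3 (2.73%, and 3.77% over all tested genes). Their median log2 fold change was -0.09. Among 20 ligand genes (19 Wnt genes and Ndp, the norrin gene), 7 passed the filter on low counts, and Wnt5a was the most abundant by counts at 58.9 ± 3.68 CPM in KO and 77.1 ± 21.3 CPM in WT (log2 fold change -0.39, interval -0.76 to -0.02, edgeR adjusted p 0.418). Wnt7a averaged 0.545 CPM in KO and 0.00678 CPM in WT, and Wnt7b 0.248 CPM in KO and 0.174 CPM in WT. Neither passed the filter on low counts. Most of the Wnt7a level in KO came from KO pup 1, at 1.87 CPM. The other KO pups had 0 to 0.166 CPM of Wnt7a and the WT pups 0 to 0.0271 CPM. Wnt7a and Wnt7b were both named after their values were seen.

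In the nuclear cofactor list 0 of 20 tested genes were called, 16 had log2 fold changes below 0 and the median was -0.14. The smallest p belonged to Ctbp2, a corepressor (log2 fold change -0.35, interval -0.53 to -0.17, edgeR adjusted p 0.113), and to Ctnnbip1, which blocks the binding of beta-catenin to TCF factors (-0.27, interval -0.44 to -0.10, edgeR adjusted p 0.210). The cytoplasmic relay list had 0 of 25 called and a median of -0.07, with Csnk1e, a casein kinase that acts on Dishevelled, at -0.31 (interval -0.48 to -0.14, edgeR adjusted p 0.144) and Csnk1g1, a casein kinase that phosphorylates LRP6, at 0.32 (interval 0.10 to 0.54, edgeR adjusted p 0.237). General targets had 0 of 12 called, 6 above 0 and 6 below, with Sp5 at -0.18 (interval -0.56 to 0.20), Ccnd1 at -0.04 and Myc at 0.23. Sp5 and Ccnd1 were named after their values were seen. The smallest p in that list belonged to the adhesion receptor gene Cd44 at 0.57 (edgeR adjusted p 0.285). Gja1 at -0.23 (edgeR adjusted p 0.430), Bmp4 at -0.91 (edgeR adjusted p 0.487) and Myc (edgeR adjusted p 0.579) followed.

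The 19 barrier genes linked to Wnt gave 13 log2 fold changes below 0 and 6 above, with a median of -0.09. Of the 19, 6 had an unadjusted p under 0.05 in edgeR (11.1% over all tested genes). In the KO-lower direction 4 were without overlap (Slc2a1, Lrp8, Slc7a1 and Cldn5), with 3.43% over all tested genes. In the KO-higher direction 1 was without overlap (Slco1a4), with 3.77% over all tested genes. These counts include Slc2a1, the deleted gene. Besides Slc2a1, the smallest p belonged to Lrp8, an apolipoprotein E receptor (log2 fold change -0.34, edgeR adjusted p 0.134), Slc7a1, a cationic amino acid carrier (-0.31, adjusted p 0.226), and Slco1a4, an organic anion carrier (0.30, adjusted p 0.226). Cldn5, the main claudin of brain endothelial tight junctions, measured 2865 to 3091 CPM in KO and 3214 to 3308 CPM in WT, a log2 fold change of -0.12 with an interval of -0.25 to 0.01, and was named after its values were seen. The remaining lists held 0 called genes: Wnt secretion together with Lypd6 (5 tested, median -0.12), R-spondins and LGR receptors (3 tested, median -0.25), other receptors (8 tested, median 0.20) and other antagonists (11 tested, median -0.26). Their smallest p values belonged to Lypd6 (log2 fold change -0.82), Lgr4 (-0.21), Sdc4 (0.78) and Igfbp4 (-0.26), with edgeR adjusted p values of 0.345, 0.859, 0.226 and 0.249. Sostdc1, an antagonist at -2.34 (edgeR adjusted p 0.345), averaged 0.824 CPM in KO and 4.32 CPM in WT, a direction shared with the choroid plexus markers, whose part in it was not tested.

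The fall of Lef1 was of similar size without any single pup, between -0.64 and -0.56 on the log2 scale, with edgeR adjusted p values from 0.00700 to 0.0268. With a cage term it was -0.46 by the titles (adjusted p 0.330) and -0.58 by the names of the deposited tables (adjusted p 0.270), and a fit on the 5 pups that the titles put together (the 4 KO pups and WT pup 5) gave -0.46 (edgeR adjusted p 0.329). In these fits the genotype difference rests on 1 WT pup. Cage and genotype cannot be told apart for the other 3 WT pups. Tcf7l1 was not called in the cage fits, at -0.63 by the titles (edgeR adjusted p 0.330) and -0.39 by the names of the tables (edgeR adjusted p 0.845). Axin2 had log2 fold changes of 0.16 with the cage term by titles and 0.42 with that by the names of the tables, neither of them called.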

How the data were processed

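Messenger RNA of 8 brain endothelial samples was sequenced from stranded poly(A) libraries with single-end reads, per the labels' protocols. The authors deposited raw counts per gene, 1 table per library, whole numbers under a header naming matched counts. STAR, featureCounts and GRCm38 are named in the submitters' processing notes, without versions, and the sources used here give neither the annotation nor the strand setting. Symbols, coordinates and exon lengths came from GENCODE M21 (25664 of 25700 rows named, and the other 36 held 0.0223% of counts). Members and lists were chosen with earlier results of these data known.

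Genes were kept by filterByExpr (minimum count 10, minimum total 15), scaled by TMM (factors 0.978 to 1.026) and tested with edgeR 4.0.16 in R 4.3.3 with genotype as the only term, with Benjamini-Hochberg adjustment across the 14154 genes (threshold 0.05). Levels are TMM-scaled CPM, and between genes CPM per kilobase of exon. Each F statistic with its fold change gave the standard error and the 95% interval. Exact permutation tests used 70 assignments. A count of 0 allows 3 counts, which covers counting error only. Named genes were the 39 members and, per other list, called genes and up to 4 with the smallest p. Alternatives changed scaling, filter, test (DESeq2 1.42.0, limma-voom 3.58.1), terms (cage, pup number, 1 surrogate variable from sva 3.50.0) and libraries. Groups came from the titles. No pair of libraries held the same counts (chi-square per gene at least 13.9 in 28 pairs).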

Additional observations from a re-analysis of the deposited data

Results flagged for a closer look

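Of 76 sets of 4 values checked for a library standing apart from the other 3 (38 genes in 2 groups), 2 did so (2.63%), where chance gives about 1 in 20. Dvl2 measured 10.4 CPM in KO pup 1, against 21.6 to 23.3 CPM in the other KO pups. Sfrp1 measured 9.77 CPM in WT pup 5, against 4.09 to 4.80 CPM in the other WT pups.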

How the results depend on the processing

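Over the 20 alternatives, 708 of 757 log2 fold changes of pathway genes kept their direction and their side of the threshold, 8 newly passed it, 4 (all Lef1) no longer passed it and 37, in 15 genes, changed sign, of which 0 were called. Leaving out KO pup 1 and WT pup 2 together was chosen after seeing the data. It gave 76 called genes over all tested genes, and limma-voom gave 72. The genes called over all tested genes numbered 55, and 84 with no filter, 351 with DESeq2, 109 with 1 surrogate variable, 16 with cage by titles, 10 with cage by table names, 22 within the KO cage by title and 32 to 85 with 1 pup left out (85 without KO pup 1, 36 without KO pup 2, 32 without KO pup 3). The pathway genes called lower numbered 1, and 2 with no filter, limma-voom, 1 surrogate variable or KO pup 1 and WT pup 2 left out, 4 with DESeq2, 0 with either cage term or within the KO cage, and 1 to 2 with 1 pup left out (2 without KO pup 1). Lef1 was not called at -0.46 (cage by titles), -0.58 (cage by table names) and -0.46 (within the KO cage), where the KO cage held 1 WT pup.

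Pup numbers did not pair the samples (correlations of same-numbered deviations -0.029, 0.026 and -0.071, with 0 of 6 samples correlating best with their own number). With pup number as a replicate block over 3 shared numbers, 11 genes were called over all tested genes, 0 pathway genes were called, and Lef1 was -0.61 (edgeR adjusted p 0.199). Under this block 4 pathway genes changed sign, to 0.05 for Fzd6, 0.02 for Lrp5, 0.07 for Tcf7l2 and 0.01 for Foxq1.

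Other changes of sign were these log2 fold changes. With cage by titles they were -0.29 for Fzd7, 0.04 for Ctnnb1, 0.05 for Notum and 7.44 for Wif1, and within the KO cage -0.29, 0.04, 0.05 and 6.85 for the same genes, where WT pup 5 had 0 counts of Wif1. With cage by table names they were 0.03 for Lrp6, 0.12 for Gsk3b, 0.12 for Tcf7l2 and 0.14 for Znrf3. Without KO pup 1 and WT pup 2 they were 0.01 for Fzd6, 0.01 for Lrp6, 0.03 for Dvl2 and -0.14 for Nkd1. Upper quartile factors gave 0.01 for Tcf7l2, and 1 surrogate variable gave -0.06 for Nkd1. With 1 pup left out they were -0.04 for Fzd5 and -0.01 for Fzd7 (WT pup 3), 0.02 for Fzd6 (KO pup 4 or WT pup 2), 0.01 and 0.33 for Fzd10 (KO pup 1, WT pup 5), 0.06 for Dvl2 (KO pup 1), 0.01 for Ctnnb1 (WT pup 1), 0.07 for Tcf7l2 (KO pup 4) and 0.01 for it (WT pup 1 or 2), -0.08, -0.04 and -0.02 for Nkd1 (KO pup 1, KO pup 2, WT pup 2) and 0.02 for Foxq1 (KO pup 4). Over all single-pup fits the extremes of these genes on the other side were 0.36 (Fzd5), 0.28 (Fzd7), -0.76 (Fzd10), -0.25 (Dvl2), 0.13 (Nkd1) and -0.10 (Foxq1). The cause of these changes was not tested. Counts were lowest for Fzd2, Fzd10, Rnf43 and Wif1, each with 0 counts in KO pup 1, which limits the precision of their values.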
